A study of Dirofilaria immitis with 5 samples.

Results

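miR-5364 is a nematode microRNA, and it was followed here among the small RNAs that living worms of Dirofilaria immitis, the filarial parasite that causes heartworm disease in dogs, left in their medium. Every row of the deposited small RNA table named miR-5364 was taken, which gave 3 of 1228 rows. The microRNA was selected on its raw counts across these libraries, so its levels are given as a description without a test. The table came from small RNA sequencing of medium from microfilariae (the offspring that adult females shed into blood), third-stage larvae (L3, the infective form passed on by mosquitoes), the fourth-stage larvae (L4) that follow in the host, adult females and adult males. All 5 groups were live whole worms in culture, with no further treatment, allele or strain named in the labels, which also give no worm number, age or culture time. Each group had 1 library, so no spread between cultures could be measured, and all intervals below are exact 95% intervals that cover counting error only. Without molecular identifiers, PCR copies of 1 molecule were counted as separate reads. In medium, release of RNA by living worms and leakage from dying worms cannot be told apart.

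A microRNA finds its targets mainly through its seed, bases 2 to 8 counted from the 5′ end. The let-7 family of nematodes, which includes let-7 and miR-84, shares one seed, and together with lin-4 these microRNAs time the fates of larval cells in Caenorhabditis elegans. There lin-4 acts in the early larval stages, and let-7 acts at the passage to the adult. No role of miR-5364 in heartworm is given in the sources used here.

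The sequences below show how miR-5364 relates to let-7. They are written as in the table, with T for U, and capitals mark bases 2 to 8. The prefixes bma, asu, cel and prd stand for Brugia malayi, Ascaris suum, Caenorhabditis elegans and Panagrellus redivivus, the species whose microRNA entry gave the name. Names starting with PC are the authors' predicted candidates.
bma-miR-5364: cGAGGTATtgtttattggctga
bma-miR-5364_R+2: cGAGGTATtgtttattggctgaga
PC-3p-150636_3: cGAGGTATtgtttattggctgaaa
asu-let-7-5p: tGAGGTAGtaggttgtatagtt
asu-miR-84-5p_R-5: tGAGGTAGtttataaagc
bma-lin-4: tCCCTGAGacctctgctgcga

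The main row, bma-miR-5364, was 22 nt long and matched asu-let-7-5p at 6 of the 7 seed positions. Counted from the 5′ end of bma-miR-5364, the differences within the first 8 bases were C1T and T8G, with the base of miR-5364 first and that of let-7 after the position. Beyond base 8 the resemblance ended, with 3 of 14 positions the same. Against the shorter miR-84 row, 6 of 7 seed positions and 5 of the 10 later positions were the same. Against bma-lin-4, 1 of 7 seed positions was the same. Of all 1228 rows, 7 (0.570%) had GAGGTA at bases 2 to 7, read on the strand sequenced. They were the 3 rows with the miR-5364 seed GAGGTAT and 4 rows with the let-7 seed GAGGTAG. The first base of miR-5364 was C, which 22 of the 173 rows named after known nematode microRNAs (12.7%) also had, while 91 of them (52.6%) began with T.

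Nearly all miR-5364 reads lay in 1 sequence. bma-miR-5364 held 1832 reads summed over the libraries. bma-miR-5364_R+2, which has 2 more bases at its 3′ end, held 5 reads, of which 1 was in L4, 1 in adult females and 3 in adult males. The candidate PC-3p-150636_3 is not named for miR-5364 but begins with the whole of bma-miR-5364 and ends in other bases, and it also held 5 reads (2 in L4, 1 in adult females and 2 in adult males). The longer forms made up 0 of 4 reads in microfilariae, 0 of 171 in L3, 3 of 1086 in L4 (0.276%, 0.0570 to 0.805), 2 of 427 in adult females (0.468%, 0.0568 to 1.68) and 5 of 154 in adult males (3.25%, 1.06 to 7.41). The interval of adult males thus lay above that of L4, on 5 reads. It overlapped those of adult females, L3 (0 to 2.13) and microfilariae (0 to 60.2).

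The third row named for miR-5364, asu-mir-5364-p3_1ss18CT, barely registered. Its estimated count was 0.667 in adult females and 0 in the other libraries. It is shown because of the stretch, in capitals, that it largely shares with the long form of miR-5364.
asu-mir-5364-p3_1ss18CT: ATTGGCTAAGAtcaaagt
The first 11 bases of this row lay over bases 14 to 24 of bma-miR-5364_R+2 with 10 of 11 the same. The start of the row thus resembled the 3′ part of this long form, with 1 base different, and its remaining bases ran beyond the end of that form. The place of the row on a hairpin or genome was not examined, and no level of the opposite arm of the hairpin is drawn from it.

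By level, miR-5364 was very low in microfilarial medium and well above that level in the medium of every other group. bma-miR-5364 had 4 reads in microfilariae, 171 in L3, 1083 in L4, 425 in adult females and 149 in adult males. The libraries differed in depth, from 32981 table reads in adult males and 34445 in L3 to 326184 in L4, 376057 in adult females and 727001 in microfilariae. As a share of the table, in reads per 1000000 table reads (RPM), miR-5364 reached 5.50 RPM (1.499 to 14.1) in microfilariae, 4964 (4249.7 to 5765) in L3, 3320.2 (3126 to 3524) in L4, 1130.15 (1025 to 1243) in adult females and 4518 (3823 to 5302) in adult males. The microfilarial library had the most table reads, and at the L3 total of table reads its share would amount to 0.190 reads. By mappable reads the L3 library was the larger, with 3961584 against 3595213 in microfilariae.

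**Figure D1:**
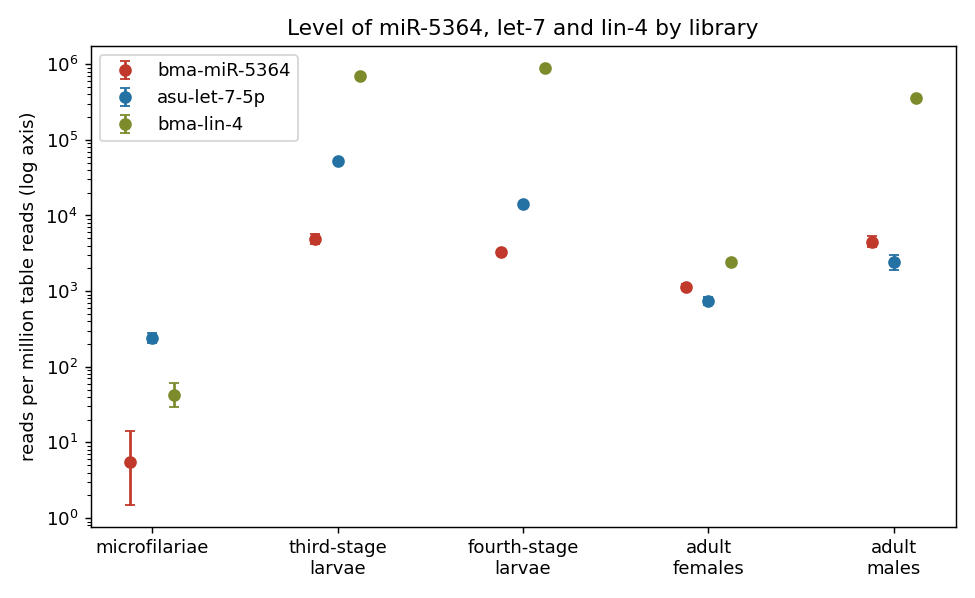
RPM of the table (log axis) of bma-miR-5364, asu-let-7-5p and bma-lin-4 in each of the 5 libraries, with exact 95% counting intervals and 1 library per group. miR-5364 lay at 5.50 in microfilariae and between 1130.15 and 4964 elsewhere, below let-7 in both larval libraries and above it in both adult libraries.

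The order of the shares was L3, adult males, L4, adult females and microfilariae. Adult males and L3 were not separated by counting error, since the ratio of males to L3 was 0.910 (0.726 to 1.14). Every other pair of neighbours in that order was separated by more than counting error. Adult males stood 1.36-fold (1.14 to 1.62) over L4, adult females at 0.340 (0.304 to 0.381) of L4, and microfilariae at 0.00487 (0.00132 to 0.0126) of adult females, a 205-fold lower share. At least 2-fold lower in microfilariae than in adult females were 42.5% of the 174 rows compared. Within each library the main row ranked 186th of all rows by reads in microfilariae, 8th in L3, 9th in L4, 39th in adult females and 21st in adult males.

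By share of the table, the largest step among the 7 pairs of libraries compared was the one between L3 and microfilariae, the stages on either side of the mosquito. The share of miR-5364 was 902-fold (346 to 3349) higher in L3, with 171 reads against 4. Its size depended on the scaling, from 38.8-fold per mappable read to 5506-fold with the authors' library size parameter. Per mappable read the step was smaller than that between microfilariae and adult females, where the ratio was 0.00809. As a share of the table, the L3 over microfilariae ratio of miR-5364 was the 3rd highest among the 151 rows with 10 or more reads in either library. At least 2-fold higher in L3 were 11.3% of those rows. Since 144 rows reached 10 reads in microfilariae and 37 in L3, most of the 151 entered through microfilariae. Of the 151, 79 had 0 reads in 1 library, and 63 entered at equal shares. The rank and the percentage thus partly reflect the filter and the floor. lin-4 and let-7 stepped the same way by other amounts. The ratio was 16558 (11662 to 24375) for bma-lin-4. It was 216 (185 to 254) for asu-let-7-5p, so that miR-5364 lay between them. Under all 7 scalings of the libraries that were computed, microfilariae had the lowest level of miR-5364.

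Between L4 and L3, on either side of a molt, the ratio of miR-5364 was 0.669 (0.569 to 0.791). Among the 66 rows that reached 10 reads in L4 or L3, the ratio was 0.5 or less for 48.5%, and miR-5364 was not one of them. In L4 63 rows reached 10 reads, against 37 in L3, so many of the 66 entered through L4. The ratio was 1.27 (1.25 to 1.29) for bma-lin-4 and 0.276 (0.261 to 0.291) for asu-let-7-5p. The direction for miR-5364 depended on the scaling, with a ratio of 3.91 per mappable read and 1.89 when bma-lin-4 was left out of the totals. bma-lin-4 took 89.6% of the L4 and 70.6% of the L3 table reads.

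The sexes differed by share. miR-5364 had 1130.15 RPM in adult females, against 4518 in adult males, a ratio of 0.250 (0.207 to 0.304). At least 2-fold lower in females were 20% of the 140 rows with 10 or more reads in either sex. As 136 rows reached 10 reads in females and 53 in males, most of the 140 entered through females. Of the 140, 45 had 0 reads in 1 library, and 26 entered at equal shares. The percentage thus partly reflects the filter and the floor. Per mappable read the direction turned, with 137 reads per 1000000 mappable reads in females, against 45.2 in males. By share of the table, let-7 gave nearly the same ratio between the sexes, 0.305 (0.237 to 0.396), and lin-4 a far lower one, 0.00686 (0.00641 to 0.00733).

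Relative to L4, both adult libraries held more of miR-5364 than of let-7 or lin-4. Of the L4 level, adult females had 0.340 of miR-5364, 0.0515 (0.0454 to 0.0581) of let-7 and 0.00274 (0.00256 to 0.00292) of lin-4. Adult males had 1.36 of miR-5364, 0.169 (0.134 to 0.211) of let-7 and 0.399 (0.392 to 0.406) of lin-4. By share, 11.5% of 148 rows were at least 2-fold lower in females than in L4, and 10.4% of 77 rows were at least 2-fold lower in males. With 136 rows at 10 reads or more in females and 63 in L4, most of the 148 entered through females. The female ratio of miR-5364 ran from 0.0353 with median of ratios scaling to 0.815 per mappable read. The male ratio was below 1 under 5 of the 6 other scalings tried, such as 0.220 without bma-lin-4 in the totals.

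**Figure D2:**
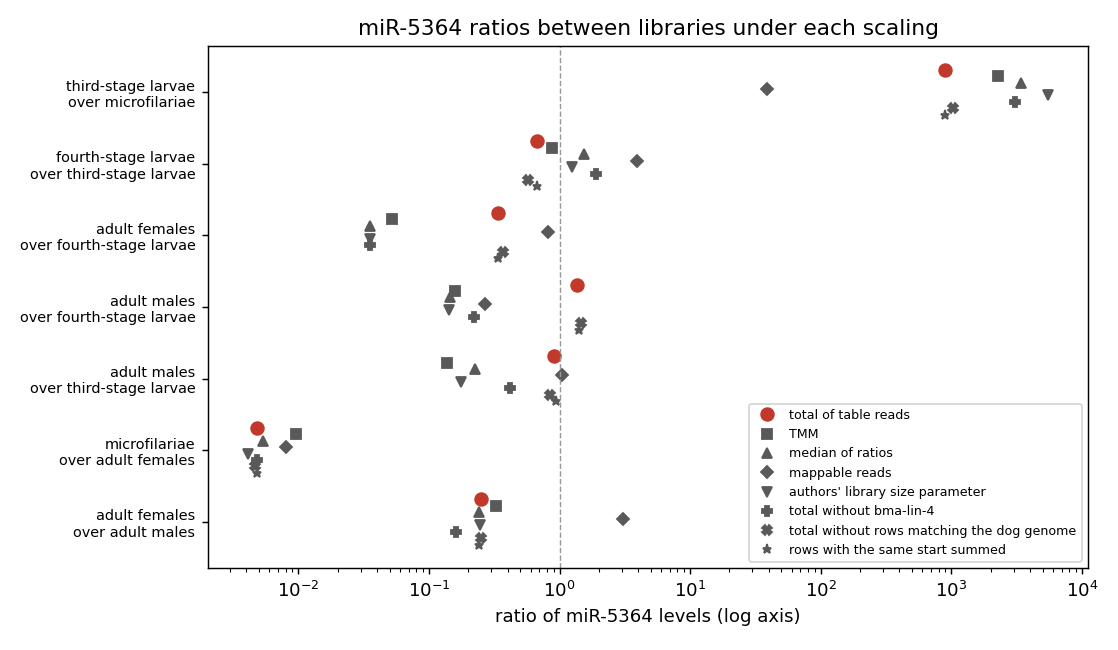
Ratio of miR-5364 between pairs of libraries (log axis, first-named over second-named) with the total of table reads in red and 7 alternatives in grey. The ratios of L3 over microfilariae stayed above 1 and those of microfilariae over adult females below 1 throughout, while the ratios between L4 and L3, adult males and L4, adult females and males, and adult males and L3 crossed 1. Those of adult females over L4 stayed below 1.

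A ratio of 2 rows within 1 library does not depend on how libraries are scaled to each other. Reads of miR-5364 per 100 reads of asu-let-7-5p were 2.29 (0.616 to 5.96) in microfilariae, 9.53 (8.10 to 11.1) in L3, 23.1 (21.6 to 24.7) in L4, 153 (131 to 178) in adult females and 186 (141 to 248) in adult males. let-7 outnumbered miR-5364 in microfilariae and larvae, and miR-5364 outnumbered let-7 in both adult libraries. In reads, the adult females had 425 of miR-5364 and 278 of let-7, and the adult males 149 and 80. Each step was larger than counting error up to the adults. The ratio was 4.17-fold (1.57 to 15.7) higher in L3 than in microfilariae, 2.43-fold (2.04 to 2.89) higher in L4 than in L3, 6.61-fold (5.59 to 7.83) higher in adult females than in L4 and 8.06-fold (6.04 to 10.8) higher in adult males than in L4. Between the sexes it was not separated by counting error, at 0.821 (0.593 to 1.13) for females over males.

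Against lin-4 the order of the libraries was different. Per 100 reads of bma-lin-4 there were 12.9 reads of miR-5364 (3.31 to 36.5) in microfilariae, 0.703 (0.601 to 0.817) in L3, 0.370 (0.349 to 0.393) in L4, 46.1 (41.0 to 51.8) in adult females and 1.26 (1.07 to 1.49) in adult males. This ratio was 124-fold (109 to 142) higher in adult females and 3.41-fold (2.85 to 4.06) higher in adult males than in L4. It was 36.5-fold (29.8 to 44.8) higher in adult females than in adult males. The microfilarial value rests on 4 and 31 reads.

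**Figure D3:**
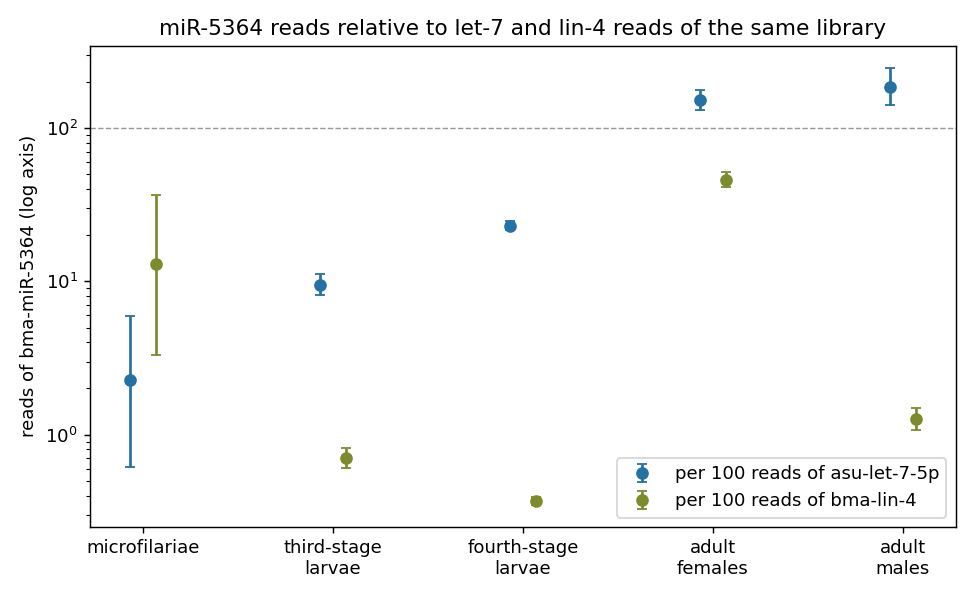
Reads of bma-miR-5364 per 100 reads of asu-let-7-5p or of bma-lin-4 in the same library (log axis), with exact 95% counting intervals and a dashed line at equal reads. The let-7 ratio lay at 2.29 in microfilariae and above the line in adult females (153) and adult males (186), while the lin-4 ratio was lowest in L4 (0.370) and highest in adult females (46.1).

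The rows that share GAGGTA at bases 2 to 7 changed in make-up between the stages. The 3 rows with the miR-5364 seed held 4 of 196 such reads in microfilariae (2.04%, 0.559 to 5.14), 171 of 2131 in L3 (8.02%, 6.91 to 9.26), 1086 of 6282 in L4 (17.3%, 16.4 to 18.2), 427 of 712 in adult females (60.0%, 56.3 to 63.6) and 154 of 239 in adult males (64.4%, 58.0 to 70.5). The remainder were let-7 reads, apart from 4 reads of miR-84 in L4. All reads of these rows together came to 270 RPM in microfilariae, 61866 in L3, 19259 in L4, 1893 in adult females and 7247 in adult males. Dog genome matches were listed by the authors for asu-let-7-5p, 3 of them exact, and for both other let-7 rows with this seed, and none for the 3 rows with the miR-5364 seed. The part of dog RNA in the let-7 reads was not tested.

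**Figure D4:**
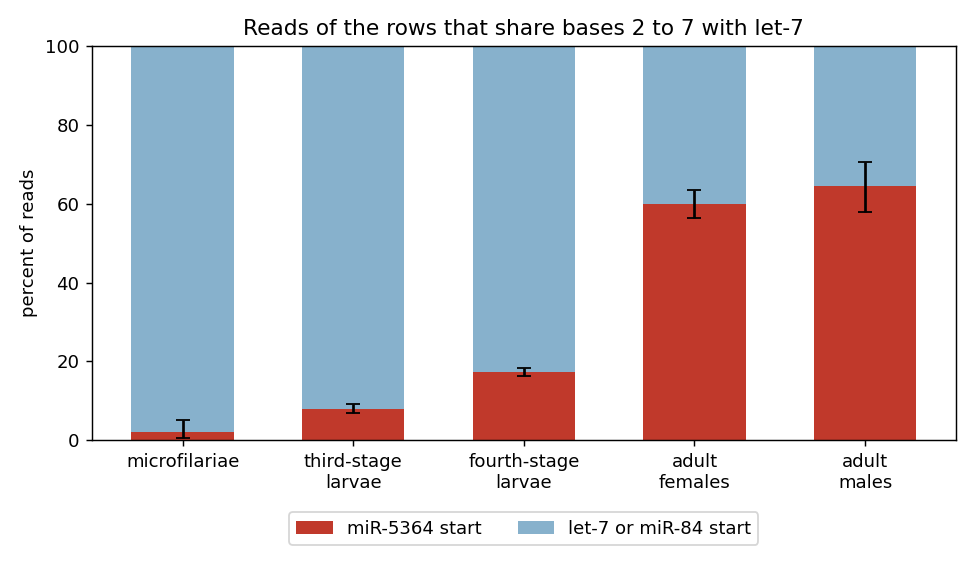
Percent of the reads in rows with GAGGTA at bases 2 to 7 that had the miR-5364 seed (red, with exact 95% counting intervals) or the let-7 seed (blue), by library. The red part was 2.04% in microfilariae, 17.3% in L4, 60.0% in adult females and 64.4% in adult males.

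The list of timing microRNAs (lin-4, let-7 and miR-84 rows, with no row named miR-48, miR-98, miR-125, miR-237, miR-241 or miR-795) held 10 rows. In L3 over microfilariae, 5 of the 10 had 10 or more reads in either library, and all 5 were at least 2-fold higher, as were 11.3% of all 151 rows. Of the 5, asu-lin-4-5p, cel-let-7-5p_R+1 and prd-let-7-5p_1ss12GA passed only through L3, with 0, 8 and 9 reads in microfilariae. The filter thus fixed their direction. The list's median log2 ratio was 7.76, and that of miR-5364 was 9.82. The median over all rows, 0, was set by the floor rather than measured, since 63 rows with 0 reads in 1 library were too scarce in the other to give a direction and entered at a log2 ratio of 0. In L4 over L3, 3 of 5 were at least 2-fold lower, against 48.5% of all 66 rows, with a median log2 ratio of -1.37 for the list, -0.94 over all rows and -0.58 for miR-5364. In adult females over L4, all 5 such rows were at least 2-fold lower, against 11.5% of all 148 rows, with a median log2 ratio of -5.66 against 3.07 over all rows, of which 53 had 0 reads in 1 library and entered at a bound, and -1.55 for miR-5364. Here asu-lin-4-5p, cel-let-7-5p_R+1 and prd-let-7-5p_1ss12GA passed only through L4, with 3, 6 and 1 reads in adult females. Their direction was again fixed by the filter. In adult males over L4, 4 of 5 were at least 2-fold lower, against 10.4% of all 77 rows, with a median of -2.19 against 2.84 over all rows, of which 16 entered at a bound, and 0.44 for miR-5364. There cel-let-7-5p_R+1 and prd-let-7-5p_1ss12GA passed only through L4, with 5 and 0 reads in adult males. Rows with 10 or more reads numbered 144 in microfilariae and 136 in adult females, against 37 in L3 and 63 in L4. Many other rows thus entered through microfilariae or adult females. No difference between the list and all rows is therefore drawn from these counts and medians. The 5 list rows counted in these comparisons are forms of lin-4 and let-7 only. cel-let-7-5p_R+1 is asu-let-7-5p with 1 more base, and prd-let-7-5p_1ss12GA differs at 1 base and also has 1 more. asu-lin-4-5p differs from bma-lin-4 at 1 base. The rows are thus not separate microRNAs.

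The rows whose profile over the 5 libraries was most like that of miR-5364 were found by the root mean square difference of log2 shares, each centred on its own mean, with 1 read added to every count. Among 113 other rows with 50 or more reads in all, the nearest was asu-lin-4-5p at 1.51, followed by the candidates PC-3p-42148_13 at 1.995 and PC-3p-4596_246 at 2.11, asu-let-7-5p at 2.31 and cel-let-7-5p_R+1 at 2.45. bma-lin-4 was the 6th at 2.69. asu-lin-4-5p had 0 reads in microfilariae, 12 in L3, 132 in L4, 3 in adult females and 10 in adult males. Its microfilarial value was thus set by the 1 read added. asu-lin-4-5p differs from bma-lin-4 at 1 base and had 0.0493 reads per 100 of bma-lin-4 in L3, 0.0452 in L4, 0.325 in adult females and 0.0848 in adult males. PC-3p-42148_13 rests on few reads, with 1 in microfilariae, 7 in L3, 50 in L4, 2 in adult females and 1 in adult males, and is listed with dog genome matches. PC-3p-4596_246 had 52 reads in microfilariae, 36 in L3, 411 in L4, 88 in adult females and 64 in adult males.

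No row of the 113 had the same order of the 5 libraries by share as miR-5364. That order was itself not settled. For miR-5364, adult males and L3 were not separated by counting error. The order of adult males and L4, and that of L4 and L3, changed with the scaling. L4 rather than L3 had the highest level per mappable read and with bma-lin-4 out of the totals. The same held with median of ratios and with the authors' library size parameter. Per mappable read, adult females also stood above adult males. In 10 of the 113 rows (8.85%) the share was lowest in microfilariae, below every other library. In 4 (3.54%) it was lowest in microfilariae and also higher in adult males than in L4. The 113 rows had been chosen on reads summed over the 5 libraries. Microfilariae had the most table reads, 727001, and L3 and adult males the fewest, 34445 and 32981. Rows high in microfilariae thus passed this filter more easily than rows lowest there. These percentages, and the lack of a row with the same order, therefore partly reflect the filter. By centred log2 share, all 5 nearest rows were lower in adult females than miR-5364. The centred log2 share of miR-5364 in females was 0.33, against -2.49 for asu-lin-4-5p, -1.19 for PC-3p-4596_246, -2.10 for asu-let-7-5p and -3.61 for bma-lin-4.

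**Figure D5:**
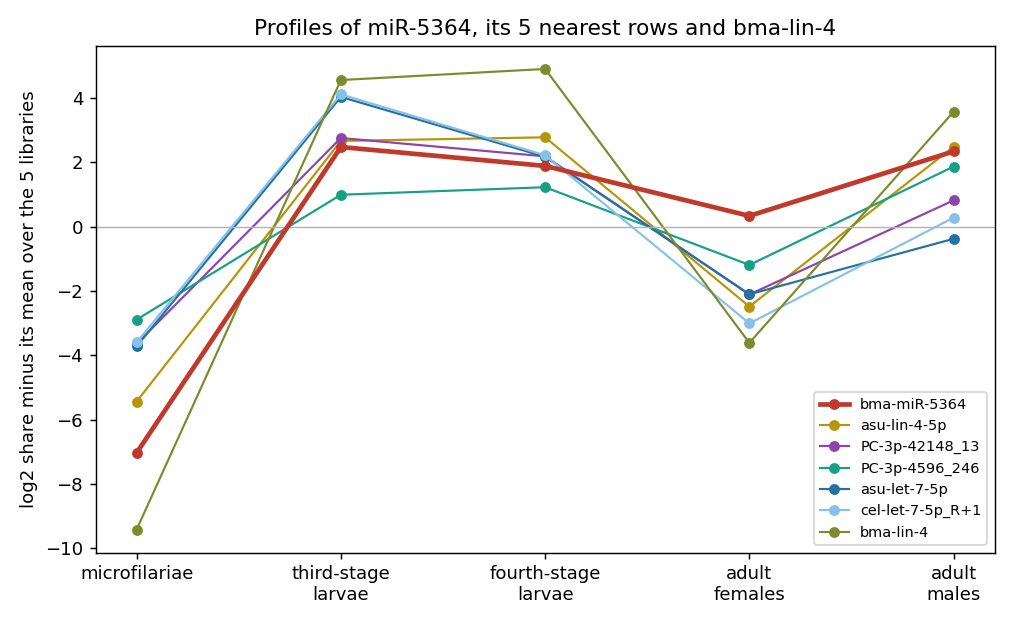
Log2 share of each row minus its mean over the 5 libraries, for bma-miR-5364 (thick red line), its 5 nearest rows and bma-lin-4, with 1 read added to each count. All dip in microfilariae and in adult females relative to the larvae, and miR-5364 stands highest of the 7 in adult females, at 0.33.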

How the data were processed

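Per the labels' protocols, RNA was taken from concentrated culture medium with a Norgen Biotek kit and made into Illumina TruSeq small RNA libraries. bcl2fastq 1.8.4 and Bowtie were used, per the submitters' processing notes; aligner settings, genome build and microRNA release are not given in the sources here. Adapter trimming kept reads of 18 to 25 nt, per the file headers, leaving 3091465 to 6423977 mappable reads per library. The authors deposited estimated counts per distinct sequence, unnormalized, with 114 fractional values. They also deposited a normalized signal, the count divided by a library size parameter, which was checked against every value and used only as an alternative. Of the table's lines, 1 was not used here. Counts were rounded to whole numbers; library totals were not. Shares have Clopper-Pearson intervals, ratios exact conditional binomial intervals, and ratios of ratios conditional odds ratio intervals, all at 95%. Rows with 10 or more reads in either library entered a comparison, and a 0 was set to 3 counts as a bound, with a bound past equal shares set to a log2 ratio of 0. With 1 library per group no test was made. Named rows were those named miR-5364, lin-4, let-7 and related timing microRNAs, rows with the miR-5364 seed, and the 5 nearest profiles. The rows beginning GAGGTA at base 2 and the ratio of adult males to third-stage larvae were added after values were seen. Members and lists were chosen with earlier results of these data known. Alternatives included edgeR 4.0.16 TMM scaling. Python 3.11.15 and scipy 1.17.1 were used, and the calculations were tested on simulated data.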

Additional observations from a re-analysis of the deposited data

How the results depend on the processing

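A scaling moves every row of a comparison by the same amount, here by log2 values between -4.54 and 3.60, and the ratios of miR-5364 to let-7 or lin-4 within a library do not move with it. With the total of mappable reads, the ratio of miR-5364 became 38.8 for L3 over microfilariae, 3.91 for L4 over L3, 0.815 for females and 0.268 for males over L4, and 3.04 for females over males. With the authors' library size parameter these were 5506, 1.24, 0.0355 and 0.143, with 0.177 for males over L3. With median of ratios they were 3438, 1.55, 0.0353, 0.145 and 0.225. With TMM the ratio was 0.876 for L4 over L3, 0.0521 for females and 0.158 for males over L4, 0.139 for males over L3 and 0.329 for females over males. With bma-lin-4 out of the totals the same ratios were 1.89, 0.0354, 0.220, 0.416 and 0.161. In that setting miR-5364 reached 16889 RPM in L3, 31997 in L4 and 7032 in adult males. Per 1000000 mappable reads it had 1.11 in microfilariae, 43.2 in L3, 169 in L4, 137 in adult females and 45.2 in adult males. With all let-7 rows summed, miR-5364 reads per let-7 read in L4 became 0.209. Without a filter on low counts, 2 of the 5 nearest rows stayed among the nearest. asu-let-7-5p then ranked 51st and bma-lin-4 540th of 1204 rows. Scaling by mappable reads cannot move the distances between profiles, so it bears on nothing there. Of the 76 other alternative values, 41 lay within the counting interval of the value reported or kept all 5 nearest rows. They include those without rows matching the dog genome and those with rows of the same start summed (chosen after seeing the data). That summing could not move values of microfilariae and L3, which had 0 reads in longer forms. Of the rest, 25 lay outside the interval or lost some nearest rows, and 10 lay outside it with the direction reversed. The low totals of table reads limit L3 and adult males most, where 3 counts are 87.1 and 91.0 RPM. No paired analysis was possible because each group had 1 library.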
